A study of Mus musculus with 12 samples.

Results

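The livers of mice labelled E2f2 knockout were compared with those of wild type mice, after a liver carcinogen and a high fat diet, across all genes measured on expression arrays. The comparison used 8 of the 12 arrays of the series, 4 per group, and each array held RNA from the liver of 1 mouse. Of 34602 gene names on the array, 20263 had a probe that stood well above background in 3 or more of the 4 livers of either group, and these were tested. By the treatment protocol, wild type (129/Sv x C57BL/6), E2f2-/- and E2f1-/- mice all received 1 intraperitoneal dose of the carcinogen diethylnitrosamine (DEN, 25 mg/kg) on postnatal day 14. They were weaned at 1 month and fed a diet with 60% of its calories from fat for 32 weeks. Livers were taken at 9 months after a fast of 4 hours. For the E2f1-/- mice 1 label field names vehicle and chow instead, so their treatment is not settled here. The labels give neither the sex of the mice, nor the strain of the knockouts, nor the deleted part of the gene, nor the cells that lack it, nor the hour at which livers were taken. Wild type mice received the same DEN and diet, so the comparison holds no untreated liver.

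E2F2 belongs to the E2F family of transcription factors, which bind DNA with a DP partner and are held in check by the retinoblastoma family of pocket proteins. When cyclin-dependent kinases phosphorylate the pocket proteins, E2F1, E2F2 and E2F3 are released and drive genes of DNA replication and the cell cycle. In mice that receive DEN as pups, the liver develops hepatocellular tumours with age, and a high fat diet loads the organ with lipid. Hepatocytes of the adult liver otherwise divide rarely and carry out fatty acid oxidation, bile acid synthesis, gluconeogenesis and the secretion of plasma proteins.

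Every level below is a log2 signal relative to the 75th percentile of its array, so 0 is the 75th percentile and 1 unit is a 2-fold step. Differences are E2f2-labelled minus wild type with their standard error (SE), n = 4 per group. "Rose" and "fell" are used for an adjusted p under 0.05, by limma with Benjamini-Hochberg adjustment over all 20263 genes. Values for arrays are given in the order of replicates 1 to 4.

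The E2f2 probe did not separate the groups. It lies on chromosome 4 at 135750562-135750621 (mm9, the coordinates of the array files), and it read 0.65, 1.24, 1.16 and 0.88 in wild type and 0.35, 0.88, 0.88 and 0.66 in the E2f2-labelled livers. All 8 values were above background and the ranges overlapped, with a difference of -0.29 ± 0.21 (adjusted p = 0.358). In the livers labelled E2f1 knockout the same probe was lower than wild type by 1.51 (adjusted p = 0.00136), and the E2f2-labelled livers stood 1.22 ± 0.21 above them (adjusted p = 0.0111). Since the deleted part is not given, a probe outside it checks nothing, and the group is called E2f2-labelled here. The E2f1 probe differed by -0.19 ± 0.19 (adjusted p = 0.502) between E2f2-labelled and wild type livers, and by -0.83 (adjusted p = 0.0104) between E2f1-labelled and wild type livers. The E2f2 probe was thus lower than wild type under the E2f1 label and not shown to be lower under the E2f2 label. Neither label could be checked with these probes, and every direction below is that of the libraries as labelled.

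Hepatocyte identity was clear on all 8 arrays: albumin (Alb), transthyretin (Ttr), Apoa1 and the hepatocyte factor Hnf4a were well above background throughout. Between 45.6% and 54.4% of probes were well above background per array, and none was saturated. Arrays correlated at 0.953 to 0.989 within groups and 0.926 to 0.964 between them. The first component of a principal component analysis (56.0% of the variance) separated the groups without overlap, from -81.6 to -18.6 in wild type and from 44.0 to 68.3 in E2f2-labelled livers. Wild type replicate 3 stood apart from the other wild type livers, at -73.1 on the second component (14.3% of the variance) where the other 3 lay between -4.3 and 39.4. It also had lower tumour markers, given below, and results are given without it where it matters. The replicate number marks the slide, with all groups present on every slide. Within a slide a given group always sat at the same place, and the effects of place and group cannot be told apart.

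**Figure D1:**
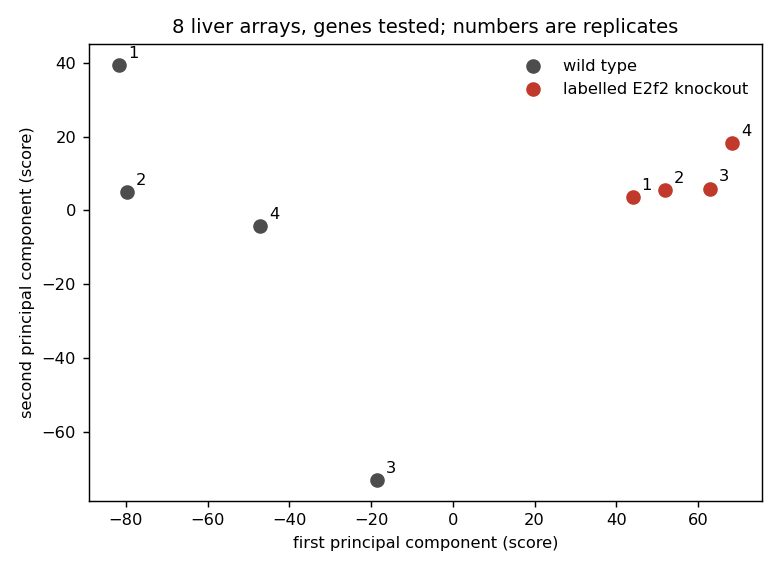
Positions of the 4 wild type and 4 E2f2-labelled arrays on the first and second principal components of the tested genes (axes are component scores without unit), 1 point per liver with its replicate number. The E2f2-labelled livers lie between 44.0 and 68.3 on the first component, and wild type replicate 3 lies at -73.1 on the second.

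Of the 20263 genes, 4231 (20.9%) passed the test: 2601 (12.8%) rose and 1630 (8.04%) fell in the E2f2-labelled livers. Counts of list members that rose or fell are to be read beside these shares of 12.8% and 8.04%. At least 2-fold by the estimated difference, 941 rose and 1150 fell, so the smaller changes leaned upward and the large ones downward. Of the calls, 121 had no wild type array and 180 no E2f2-labelled array above background. The size of these is known only as a bound, so the 2-fold counts rest in part on signals at background. The median of all genes was 0.15, and 0.104 to 0.207 within the 4 slides. The share of rises among calls, 61.5%, depended on how arrays were scaled: it was 49.6% with quantile normalization, 47.8% with median centring and 49.5% with the values of the series matrix. A fit with a slide block called 5958 (29.4%), with 19.9% of genes higher and 9.46% lower. Without wild type replicate 2 the count was 2607, the lowest when any 1 array was left out, and without wild type replicate 3 it was 5176, the highest.

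Mitotic genes fell as a group in the E2f2-labelled livers. Of 27 tested genes of G2 and mitosis 21 fell and none rose, against 8.04% of all genes that fell, with a median of -1.75 (-2.40 to -1.22 within slides). The proliferation marker Mki67 read 1.32, 2.69, 2.33 and 1.71 in wild type and 0.39, -0.83, -2.11 and -1.29 in E2f2-labelled livers, a fall of 7.84-fold (-2.97 ± 0.54, adjusted p = 0.00377). Every E2f2-labelled value was under every wild type value. Cyclin B2 (Ccnb2), which partners CDK1 at mitotic entry, read 0.67, 1.72, 0.86 and 1.00 against -1.02, -1.07, -1.42 and -0.40, a difference of -2.04 ± 0.34. Cyclin A2 (Ccna2) fell by 2.16 ± 0.36, cyclin B1 (Ccnb1) by 1.96 ± 0.46, Ect2, which positions the cleavage furrow, by 2.01 ± 0.32, and Cdca8 of the chromosomal passenger complex by 1.34 ± 0.21. All 21 were without overlap between groups, where 7.56% of all genes were lower without overlap.

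Several members were dim, Top2a and Foxm1 among them, and need a bound or a caution. Topoisomerase II alpha (Top2a), which untangles replicated DNA, was above background on 3 of 4 wild type and 0 of 4 E2f2-labelled arrays and was at least 2.11-fold lower. Foxm1, a transcription factor of mitotic genes, fell by 1.25 ± 0.26. Under normexp background correction the calls of Top2a and Foxm1 were lost, 15 of the 27 fell and the median of the list was -0.72. With only probes above background on all 8 arrays, 18 members could be tested and 13 fell. The probe that stood for Cdk1 did not pass (0.28 ± 0.26, adjusted p = 0.47), while its second probe differed by -1.82, so the gene is uncertain. Without wild type replicate 3 the list had 21 falls and a median of -1.93. In the E2f1-labelled livers, which share the wild type arrays, 22 of the 27 were lower than wild type, and none of the 27 differed between the knockout labels.

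The genes of DNA replication that E2F is known to drive moved less. Of 38 tested, 6 fell (15.8%, against 8.04% of all genes) and 2 rose (5.26%, against 12.8%), with a median of -0.25. The share called, 21.1%, was near the 20.9% of all genes. Only 3 fell without wild type replicate 2, and 5 rose without wild type replicate 3. Uhrf1, which couples DNA methylation to replication, read -0.65, 0.09, 0.03 and -0.46 in wild type and -1.34, -2.23, -2.42 and -1.98 in E2f2-labelled livers (-1.75 ± 0.28, adjusted p = 0.00203). The replicative helicase subunits Mcm6 and Mcm2 fell by 1.68 ± 0.37 and 1.23 ± 0.26. Mcm10, an initiation factor, went the other way, from 1.35, 1.77, 4.53 and 1.99 to 4.60, 5.02, 5.46 and 4.96 (2.60 ± 0.54, adjusted p = 0.00682). Wild type replicate 3 lay close to the E2f2-labelled range for Mcm10.

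**Figure D2:**
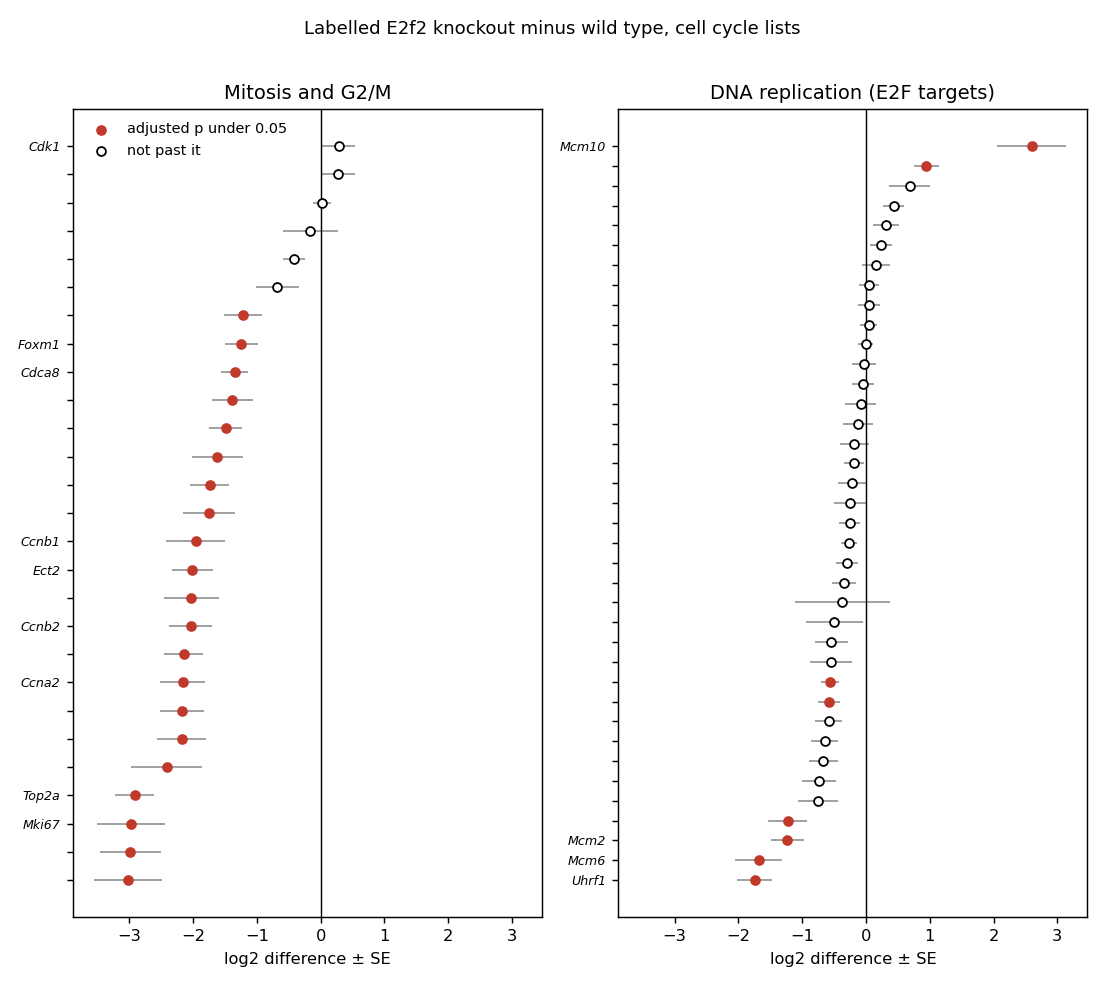
Log2 difference, E2f2-labelled minus wild type, of each tested gene of G2 and mitosis and of DNA replication, with bars of 1 SE (n = 4 per group), names for the genes named in the text and filled points for adjusted p under 0.05. Filled points mark 21 mitotic genes, all to the left of the zero line, and 8 replication genes, with Mcm10 farthest to the right at 2.60.

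The promoters of 4 genes are printed as examples of letters that some members of these groups carry. Most members of either list lack TTTGAA and the E2F-type letters, as counted below. They are the 250 bases before the annotated start, from RefSeq on GRCm38.p6, 5′ to 3′ on the gene's strand, with capitals at matches to TTTGAA (the cell cycle homology region, CHR), CCAAT and the E2F-type letters TTCCCGC and TTGGCGC, searched on both strands with overlaps allowed. Mki67 and Ccnb2 are mitotic, and Uhrf1 and Mcm6 replicative.
Mki67: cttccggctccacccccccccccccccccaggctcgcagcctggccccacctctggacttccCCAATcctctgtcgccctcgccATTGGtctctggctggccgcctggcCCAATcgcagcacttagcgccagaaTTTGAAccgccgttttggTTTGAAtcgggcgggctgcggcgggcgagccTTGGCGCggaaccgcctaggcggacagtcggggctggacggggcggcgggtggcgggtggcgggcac
Ccnb2: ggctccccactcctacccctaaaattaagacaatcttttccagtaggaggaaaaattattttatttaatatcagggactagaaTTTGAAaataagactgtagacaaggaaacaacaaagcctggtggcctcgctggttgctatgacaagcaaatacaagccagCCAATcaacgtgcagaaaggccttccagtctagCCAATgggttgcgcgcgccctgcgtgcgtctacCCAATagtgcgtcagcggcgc
Uhrf1: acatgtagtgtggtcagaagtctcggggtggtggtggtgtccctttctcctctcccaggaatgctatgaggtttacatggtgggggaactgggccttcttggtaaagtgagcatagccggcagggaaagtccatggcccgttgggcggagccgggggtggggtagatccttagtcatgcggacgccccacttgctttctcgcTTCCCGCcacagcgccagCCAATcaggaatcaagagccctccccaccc
Mcm6: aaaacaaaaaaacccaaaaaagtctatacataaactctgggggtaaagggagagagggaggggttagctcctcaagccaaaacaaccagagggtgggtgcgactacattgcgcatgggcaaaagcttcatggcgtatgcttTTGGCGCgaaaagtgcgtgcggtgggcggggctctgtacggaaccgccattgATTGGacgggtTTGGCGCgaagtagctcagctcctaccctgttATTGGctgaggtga
Mki67 lies at chr7:135716380-135716629 (minus strand), Ccnb2 at chr9:70421555-70421804 (minus), Uhrf1 at chr17:56303087-56303336 (plus) and Mcm6 at chr1:128359706-128359955 (minus). Ccnb2 held 1 TTTGAA match, upstream of its 3 CCAAT matches, and no E2F-type match. Mki67 held 2 TTTGAA, 3 CCAAT and 1 E2F-type match, and Mcm6 held 2 E2F-type matches and no TTTGAA.

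Among tested genes, 11332 had a promoter in the RefSeq table. CCAAT was in 18 of 23 mitotic promoters (78.3%), 20 of 30 replication promoters (66.7%) and 36.0% of all. TTTGAA was in 7 mitotic (30.4%), 4 replication (13.3%) and 11.3% of all. At least 1 of the E2F-type motifs was in 3 mitotic (13.0%), 10 replication (33.3%) and 9.18% of all. Over all genes that fell (1059 promoters) and rose (1582), E2F-type matches were in 8.22% and 8.91%, and TTTGAA in 12.7% and 13.5%. These are matches of letters only.

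Of 29 tested E2F, RB and associated genes, 7 fell (24.1%, against 8.04% of all genes) and none rose. The share called in either direction was 20.9% over all genes. The median of the list was -0.11 and ranged from -0.20 to 0.07 over the alternatives. The CDK inhibitor p16 locus (Cdkn2a) read 2.68, 3.15, 2.40 and 1.05 in wild type and 0.13, -0.56, -1.32 and -0.92 in E2f2-labelled livers (-2.99 ± 0.48, adjusted p = 0.00207). Its neighbour Cdkn2b (p15) was above background on 4 wild type and 1 E2f2-labelled arrays, with wild type values from -1.92 in replicate 3 to 4.46 in replicate 1, and differed by -5.60 ± 1.04. Cdkn1a (p21) fell by 3.05 ± 0.52. The pocket protein gene Rbl1 (p107) fell by 1.70 ± 0.32, measured on 1 of 4 E2f2-labelled arrays, and its call was lost under normexp. The repressive E2f8 (0.44 ± 0.35) and Rb1 (-0.40 ± 0.23) did not pass.

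Targets of p53 fell in part. Of 26 tested, 9 fell (34.6%, against 8.04% of all genes) and 1 rose (3.85%, against 12.8%), with a median of -0.39. Phlda3, an inhibitor of AKT, read 3.52, 3.54, 2.17 and 2.78 in wild type and -0.72, -0.91, -0.30 and 0.12 in E2f2-labelled livers (-3.46 ± 0.38). The antiproliferative Btg2 fell by 1.89 ± 0.35 and the death receptor Tnfrsf10b by 2.50 ± 0.52, but Mdm2, the p53 ubiquitin ligase, differed by 0.07 ± 0.13 (adjusted p = 0.761). Among 20 DNA repair genes 5 fell (25%) and none rose, where 8.04% of all genes fell and 20.9% were called. Fanca of the Fanconi pathway fell by 1.82 ± 0.28 on a dim probe, a call lost under normexp. Under normexp 2 of the DNA repair genes fell.

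Markers of liver tumours and of fetal liver showed the lowest median of all lists. Of 30 tested, 23 fell (76.7%, against 8.04% of all genes) and none rose, with a median of -2.35 (-3.47 to -1.33 within slides). Alpha-fetoprotein (Afp), a fetal plasma protein and tumour marker, read 6.34, 6.00, 2.58 and 4.80 in wild type and -0.14, 0.22, -0.29 and -1.19 in E2f2-labelled livers, 38.9-fold lower (-5.28 ± 0.76, adjusted p = 0.00107). Ly6d read 7.87, 8.12, 4.01 and 6.58 against 1.71, 1.85, 1.06 and 0.09. The steroid dehydrogenase Akr1c18 fell 67.9-fold, the imprinted RNA H19 32.0-fold and Golm1, a Golgi protein shed by tumours, 7.21-fold. The size for H19 depended on the probe, with log2 differences of -5.84 to -3.05 for its other probes. Annexin A2 (Anxa2) fell by 3.24 ± 0.38. Wild type replicate 3 was the lowest of the wild type livers for Afp, Akr1c18, Ly6d and Golm1. The oncofetal proteoglycan Gpc3 read 3.67, 4.25, -2.21 and 3.35 in wild type, so replicate 3 lay at the level of the E2f2-labelled livers (-4.23 to -2.22). Without replicate 3 the list had 22 falls and a median of -2.92.

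In bulk liver, fewer cells of a type and less RNA per cell cannot be told apart, and this holds for all lists here. The labels do not say whether the pieces of liver held tumour tissue. The tumour list was chosen with earlier results of these arrays known. In the E2f1-labelled livers 21 of these 30 genes were lower and 1 higher than the same wild type arrays, with a median of -2.43.

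**Figure D3:**
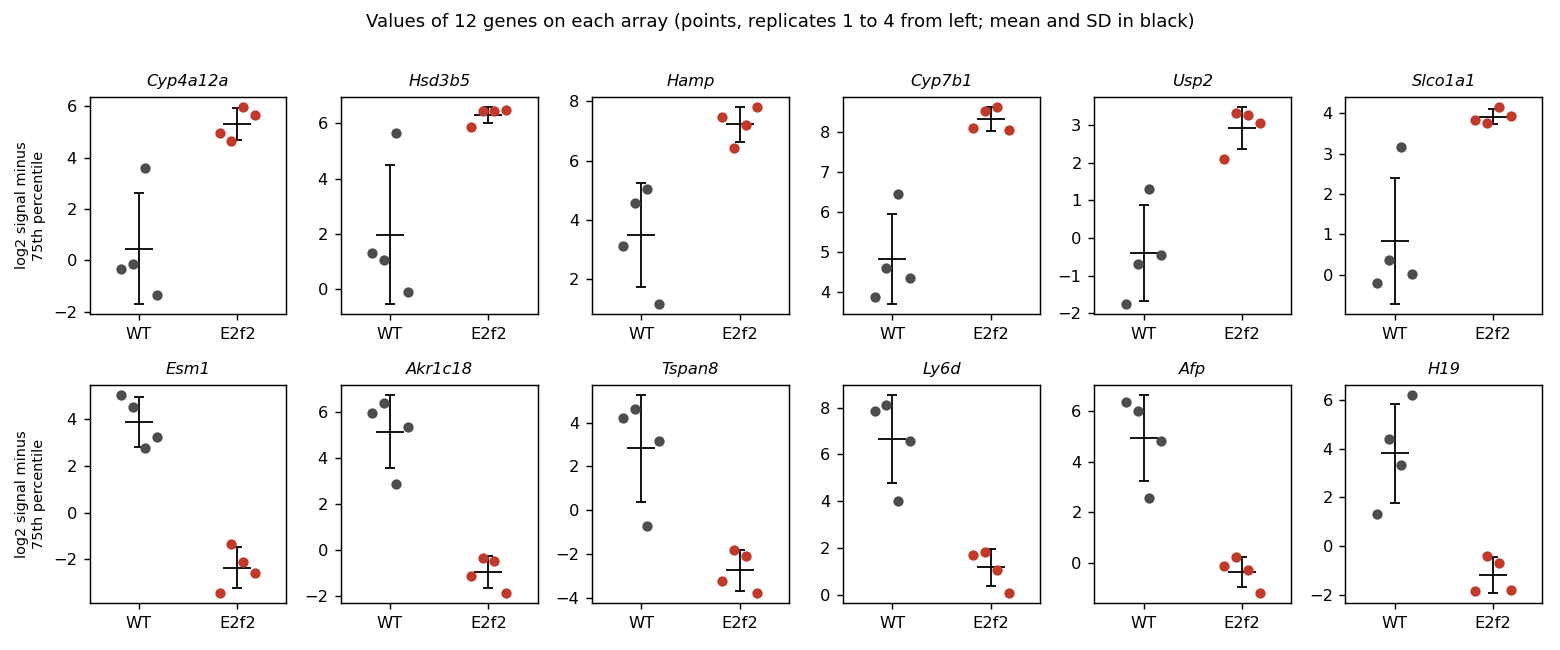
Log2 signal, relative to each array's 75th percentile, for 12 of the genes with large differences, 1 point per liver (replicates 1 to 4 from left) with group means and SD in black. Esm1, Akr1c18, Ly6d and Afp are high in wild type and low in every E2f2-labelled liver; Cyp4a12a, Hsd3b5 and Slco1a1 show the reverse, with wild type replicate 3 nearest to the E2f2-labelled livers.

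Genes that male mouse livers express more than female ones rose almost throughout. Of 23 tested, 21 rose and none fell, against 12.8% of all genes that rose, with a median of 1.85 (1.01 to 2.35 within slides). The fatty acid hydroxylase Cyp4a12a read -0.32, -0.12, 3.61 and -1.35 in wild type and 4.96, 4.67, 6.00 and 5.67 in E2f2-labelled livers, 29.2-fold higher. Cyp4a12b, its near-identical neighbour that the probes may not separate, rose 30.0-fold. Hsd3b5, a steroid reductase, read 1.31, 1.04, 5.64 and -0.12 against 5.88, 6.46, 6.43 and 6.50. The bile acid hydroxylase Cyp7b1 rose 11.4-fold, the organic anion importer Slco1a1 8.48-fold and the urinary protein Mup20 2.98-fold. Wild type replicate 3 was the highest wild type liver for all of these, and without it the list had 21 rises and a median of 2.23.

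Of 19 tested genes that female mouse livers express more, 10 fell and none rose, with a median of -2.01. The cytochrome Cyp2b13 was above background on all wild type and no E2f2-labelled arrays and was at least 46.7-fold lower, and its neighbour Cyp2b9, measured on 1 of 4 E2f2-labelled arrays, differed by -3.84 ± 0.58. Cyp2a4, a steroid hydroxylase, read 9.00, 7.52, 7.50 and 8.87 against 5.63, 6.76, 6.43 and 6.05, and the nuclear protein Tox fell by 2.10 ± 0.39. With only probes above background on all 8 arrays, 10 of the list could be tested and 4 fell. The Y-linked Ddx3y (0.10 ± 0.16) and Uty (0.11 ± 0.17) were above background on all 8 arrays and did not pass. Insulin-like growth factor 1 (Igf1), made by hepatocytes under growth hormone, rose by 1.21 ± 0.25.

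Fatty acid oxidation rose in part. Of 25 mitochondrial genes 10 rose (40%, against 12.8% of all genes) and 1 fell (4%, against 8.04%). Their median was 0.61 (0.51 to 0.76 within slides). Carnitine palmitoyltransferase 2 (Cpt2), which frees acyl groups inside mitochondria, read 4.24, 4.27, 5.35 and 4.59 in wild type and 5.65, 5.82, 6.28 and 6.00 in E2f2-labelled livers, 2.51-fold higher (1.32 ± 0.24, adjusted p = 0.00389). Its second probe gave 0.95. The isomerase Eci2 rose by 1.16 ± 0.22 and the very long chain dehydrogenase Acadvl by 0.96 ± 0.20, while the acyl-CoA synthetase Acsl5 fell by 1.00 ± 0.24. The gatekeeper Cpt1a narrowly missed the threshold (0.51 ± 0.17, adjusted p = 0.0502), and Acadm (-0.15 ± 0.23) and Hadha (0.38 ± 0.18) did not pass. The rises numbered 6 without wild type replicate 2, without E2f2-labelled replicate 3, with median centring or with no filter on dim probes, and 17 with the slide block.

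Among 30 targets of the fatty acid receptor PPARA and peroxisomal genes, 13 rose and 1 fell, with a median of 0.81. The peroxisomal thiolase Acaa1a read 6.88, 6.87, 7.83 and 7.07 against 8.34, 8.12, 8.36 and 8.26 (1.11 ± 0.21), so wild type replicate 3 lay nearest to the E2f2-labelled livers. Ppara itself rose by 0.88 ± 0.27 (adjusted p = 0.0386), but this call was lost under 12 of 19 alternatives, among them all 3 other scalings, and without any 1 of wild type replicates 1, 2 and 4 or E2f2-labelled replicates 2, 3 and 4. Several classical fasting targets did not pass: Cyp4a10 (0.09 ± 0.67), Pdk4 (-1.08 ± 0.57) and Fgf21 (-0.98 ± 0.33). The list count was 7 without wild type replicate 1, wild type replicate 2 or E2f2-labelled replicate 4, and 8 without E2f2-labelled replicate 3, under quantile, median or series matrix scaling, with no filter or in a fit of the 8 arrays alone.

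Respiratory chain genes showed small, even rises. Of 35 tested, 26 rose and none fell, with a median of 0.57 (0.52 to 0.67 within slides). The complex I subunits Ndufa5 and Ndufa4 rose by 0.85 ± 0.19 and 0.68 ± 0.15, and Uqcrfs1, the iron-sulphur protein of complex III, by 0.71 ± 0.15. The calls of Ndufa4 and Uqcrfs1 were lost with median centring, and that of Ndufa4 also with series matrix values. These small differences depended on the settings: 8, 3 and 6 genes rose under quantile, median and series matrix scaling and 10 with no filter. Leaving out wild type replicates 1 or 2 gave 11 and 8 rises, and leaving out E2f2-labelled replicates 2, 3 or 4 gave 15, 7 and 15. No member fell under any of these.

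In the citric acid cycle 11 of 25 rose and none fell (median 0.44), and among 34 genes of the mitochondrial ribosome 10 rose and none fell (median 0.41). Fumarase (Fh1) read 5.07, 5.21, 5.30 and 5.29 against 6.34, 6.56, 6.30 and 6.33 (1.17 ± 0.14, adjusted p = 0.000282), a step more than 1 unit wide with a narrow spread in both groups. Pdhb of pyruvate dehydrogenase rose by 2.15 ± 0.18, and its other probes by 0.74 and 0.91. Mrps7, a small subunit protein, rose by 0.84 ± 0.15. The citric acid cycle count was 6 and 4 without wild type replicates 1 and 2, 4 without E2f2-labelled replicate 3, 3 under each of the other scalings, 6 with no filter, 7 under normexp and 7 with the 8 arrays alone. For the mitochondrial ribosome it was 3 without wild type replicate 2 or E2f2-labelled replicates 2 or 3, 5 and 6 without wild type replicates 4 and 1, 6 without E2f2-labelled replicate 4, 1 with median centring, 3 or 4 under normexp, quantile, series matrix and no filter, and 18 with the block.

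Lipid synthesis genes went both ways. Of 26 lipogenic genes 5 rose (19.2%, against 12.8% of all genes) and 4 fell (15.4%, against 8.04%). Their median was 0.16 (-0.06 to 0.22 over the alternatives). Thrsp, a lipogenic nuclear protein, rose by 2.03 ± 0.40 and Dgat2, which makes triglyceride, by 0.86 ± 0.19. Stearoyl-CoA desaturase 2 (Scd2) read 4.45, 4.57, 2.62 and 3.83 in wild type and 0.15, -0.18, -0.51 and -1.26 in E2f2-labelled livers, 19.9-fold lower, and the adipogenic receptor Pparg fell 3.03-fold. The lipase Pnpla3 was above background in wild type only and was at least 4.25-fold lower. Fatty acid synthase (Fasn) differed by 0.29 ± 0.36. The fall of Scd1 (-1.74 ± 0.54, adjusted p = 0.0382) was lost without wild type replicates 1 or 4 or any 1 E2f2-labelled replicate, and in 8 of 19 alternatives in all. The count of rises was 3 without wild type replicates 1 or 2, without E2f2-labelled replicates 2 or 4 or with no filter, and 8 with the block.

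Of 26 genes of lipid droplets and fatty acid uptake, 4 rose (15.4%, near the 12.8% of all genes) and 6 fell (23.1%, against 8.04%). Their median was -0.26, and 7 rose without wild type replicate 3. Lipoprotein lipase (Lpl) read 4.68, 4.71, 3.19 and 4.44 against 0.94, 0.77, 0.43 and 0.18, 12.8-fold lower, and the fatty acid importer Cd36 fell 3.46-fold. The droplet coat Plin2 differed by -0.56 ± 0.45 with overlapping groups. Apolipoprotein A-IV (Apoa4) read 8.62, 7.29, 5.62 and 7.33 against 2.59, 2.69, 3.20 and 3.32, 19.2-fold lower, and Apoa5, which promotes triglyceride clearance, rose 3.35-fold. Of 26 cholesterol synthesis genes 4 rose (15.4%, near the 12.8% of all genes) and none fell, with within-slide medians from -0.61 to 0.52. The rises numbered 2 without any 1 of wild type replicates 1 and 4 or E2f2-labelled replicates 1, 3 and 4, and 1 under each of the 3 other scalings.

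Bile acid genes rose in part, with 11 of 24 higher and 1 lower (median 0.83). Besides Cyp7b1 and Slco1a1, the bile acid receptor FXR (Nr1h4) rose by 1.17 ± 0.24 and the bile salt export pump Abcb11 by 1.15 ± 0.25. The basolateral exporter Abcc3 fell by 1.01 ± 0.25. The rate-limiting enzyme Cyp7a1 read -1.01, -1.28, 1.80 and 1.95 in wild type and 2.49, 3.68, 3.03 and 2.15 in E2f2-labelled livers, without overlap but with a spread in wild type that left it short of the threshold (2.47 ± 0.94, adjusted p = 0.0813). The count of rises was 7 without wild type replicates 1 or 2 or E2f2-labelled replicates 3 or 4, with series matrix values or with no filter.

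Of 30 genes of xenobiotic metabolism 11 rose (36.7%, against 12.8% of all genes) and 6 fell (20%, against 8.04%). The cytochrome Cyp2e1, which activates DEN, read 6.74, 7.82, 9.69 and 8.66 against 9.94, 10.28, 10.12 and 10.04, 3.65-fold higher. Glutathione transferase Gstp1 rose 4.78-fold. The phenobarbital-inducible Cyp2b10 read 4.43, 3.98, 2.51 and 4.93 against -1.44, -0.06, -1.01 and 0.13, 23.6-fold lower. Rises numbered 7 without wild type replicate 2, without E2f2-labelled replicate 3 or with the 8 arrays alone. With only probes above background on all 8 arrays, 24 could be tested and 3 fell.

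Gluconeogenic and amino acid genes leaned upward. Of 26 genes of gluconeogenesis and glucose handling 8 rose and none fell. Phosphoenolpyruvate carboxykinase (Pck1) read 5.44, 6.00, 6.44 and 5.71 against 7.96, 8.23, 8.11 and 7.79, 4.36-fold higher, and glycogen synthase Gys2 rose 2.74-fold. Glucose-6-phosphatase (G6pc) overlapped (1.18 ± 0.56, adjusted p = 0.15). Among 17 glycolytic and pentose phosphate isoforms of growing tissue 4 fell (23.5%) and none rose, where 8.04% of all genes fell and 20.9% were called. Pkm was lower by 1.26 ± 0.24, Pfkp by 1.26 ± 0.24 and G6pdx by 1.77 ± 0.25. Of 22 genes of tyrosine and tryptophan breakdown 15 rose and none fell (median 0.76), with Hgd higher by 1.12 ± 0.23. Of 21 periportal and urea cycle genes 10 rose and 1 fell, while Cps1, the first urea cycle enzyme, differed by 0.45 ± 0.23. Of 25 genes of the methionine cycle and phosphatidylcholine 11 rose and 2 fell, with Ahcy, which clears S-adenosylhomocysteine, higher by 1.41 ± 0.32.

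The pericentral list rested most on 1 liver: 7 of 22 rose and none fell, but 18 rose without wild type replicate 3, with a median of 0.97 with it and 1.47 without. Leaving out any of the other 7 arrays gave 2 to 4 rises, and the other scalings 3 or 4. Counts for the remaining groups of this kind also moved. Without wild type replicates 1 and 2, 4 and 4 gluconeogenic, 6 and 5 tyrosine and tryptophan, and 6 and 4 methionine genes rose, and 6 periportal genes without wild type replicate 2. Without E2f2-labelled replicates 2, 3 and 4 the counts were 4, 5 and 5 gluconeogenic, 6, 7 and 8 tyrosine and tryptophan, and 6, 4 and 7 methionine genes, and 6 periportal genes without replicate 3. With the 3 other scalings 5 gluconeogenic, 7 or 8 tyrosine and tryptophan and 4 methionine genes rose, and with the block 14 gluconeogenic genes did. With no filter on dim probes 5 gluconeogenic, 6 tyrosine and tryptophan, 4 methionine and 2 pericentral genes rose, and under normexp 5 gluconeogenic and 7 methionine genes.

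**Figure D4:**
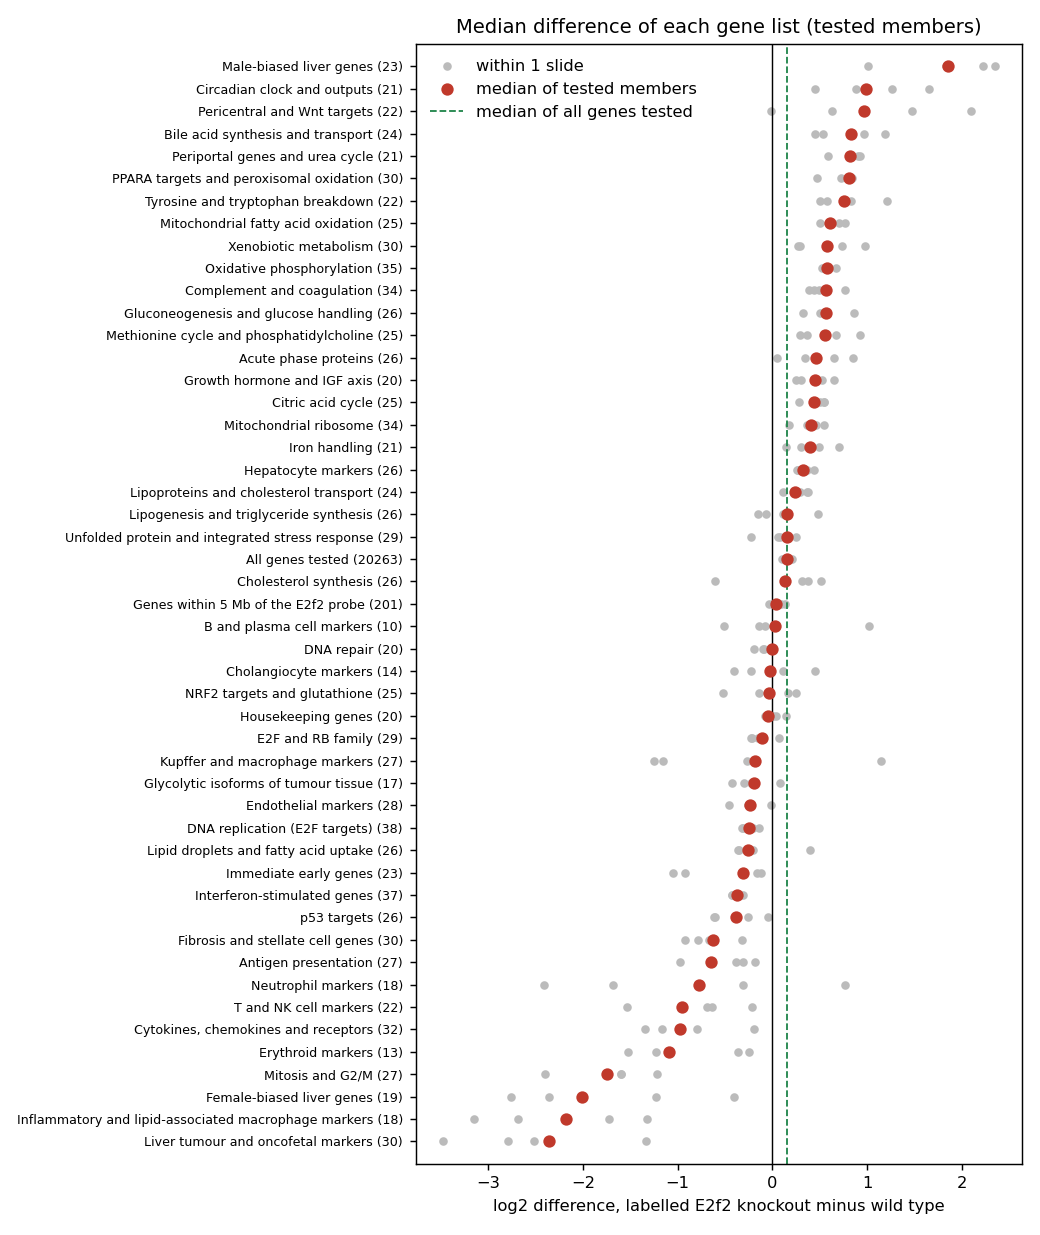
Median log2 difference, E2f2-labelled minus wild type, of the tested members of each gene list with 10 or more of them (large red points; number tested in brackets) with the medians within the 4 slides (small grey points) and a dashed line at the median of all tested genes, 0.15. The tumour list lies at -2.35, the mitotic list at -1.75 and the male-biased list at 1.85.

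Most clock genes that were called rose. Of 21 tested, 11 rose (52.4%, against 12.8% of all genes), with a median of 0.99. The 2 that fell (9.52%) were near the 8.04% of all genes. Arntl (BMAL1), the activator of the loop, read 1.17, 0.36, -1.52 and -0.37 in wild type and -2.30, -2.98, -3.68 and -3.04 in E2f2-labelled livers, a fall of 7.50-fold measured on 3 of 4 E2f2-labelled arrays. The output factor Dbp read 2.17, 2.45, 4.82 and 4.64 against 5.80, 6.21, 6.67 and 6.08, and Per3 rose 7.40-fold, Nr1d2 (REV-ERB beta) 5.75-fold and the deubiquitinase Usp2 10.1-fold. The repressor Ciart was above background only in E2f2-labelled livers and was at least 2.46-fold higher. Clock (-0.13 ± 0.17) and Nr1d1 (0.81 ± 0.43), another repressor, did not pass. Only 1 clock gene fell without any 1 of wild type replicates 1, 2 and 4 or E2f2-labelled replicates 1 and 2. Lights were on from 8:00 to 20:00, and the hour of collection of each mouse is not given.

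Inflammatory macrophage genes fell. Of 18 markers of inflammatory and lipid-associated macrophages 13 fell and none rose, with a median of -2.17 (-3.15 to -1.32 within slides). The fractalkine receptor Cx3cr1 read 1.28, 1.12, 2.14 and 1.83 in wild type and -0.86, -0.88, -1.75 and -2.27 in E2f2-labelled livers, 8.20-fold lower. Itgax (CD11c) fell 19.5-fold and the lipid receptor Trem2 6.39-fold. Gpnmb was above background in wild type only and was at least 2.40-fold lower, a call lost under normexp. The summed signal of the 18 markers ranged from 202 to 408 in wild type and from 149 to 195 in E2f2-labelled livers, in units of the 75th percentile.

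Resident Kupffer cell markers did not move as a group, with within-slide medians from -1.25 to 1.14. Of 27 tested, 3 rose (11.1%, near the 12.8% of all genes) and 6 fell (22.2%, against 8.04%). None of the 6 that fell is named in this paragraph, so its examples do not stand for the list. The scavenger receptor Cd163 was above background in E2f2-labelled livers only, at least 3.04-fold higher. Marco varied widely in both groups (1.41, 5.25, 6.72 and 2.42 against 8.20, 4.99, 3.96 and 4.10). The falls numbered 3 without any 1 of wild type replicates 2, 3 and 4 or E2f2-labelled replicates 2, 3 and 4, with no filter and with the 8 arrays alone, and 5 rose without wild type replicate 3. Only 1 rose without any 1 of wild type replicates 1 and 4 or E2f2-labelled replicates 1 and 3.

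Of 32 cytokines, chemokines and their receptors 13 fell and 4 rose, with a median of -0.98. The rises numbered 2 without any 1 of wild type replicates 1 and 2 or E2f2-labelled replicates 2 and 4. Ccl4, a chemokine of macrophages and T cells, read 0.48, 1.25, 2.75 and 1.63 against -2.23, -1.34, -2.34 and -2.26, 11.9-fold lower. The interferon-induced Cxcl9 and Cxcl10, ligands of CXCR3, fell 5.78-fold and 3.02-fold, and Ccl5 4.91-fold. Tnf, measured on 3 wild type and no E2f2-labelled arrays, was at least 1.85-fold lower, a call lost under normexp. The interleukin 1 receptor Il1r1 rose instead, from 1.05, 1.60, 1.25 and 1.65 to 4.66, 4.51, 2.40 and 3.56. Il1b differed by -1.22 ± 0.53 with overlap.

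Of 37 interferon-stimulated genes 12 fell and 1 rose, and 7 fell without E2f2-labelled replicate 4. The guanylate-binding protein Gbp2 fell 5.11-fold and Ifi44 4.52-fold, while Isg15 did not pass (-0.44 ± 0.19). In antigen presentation 11 of 27 fell and 1 rose, and 7 fell without wild type replicate 2 or with no filter. Beta-2-microglobulin (B2m), the light chain of MHC class I, read 8.51, 8.68, 8.55 and 8.52 against 7.84, 7.79, 7.90 and 7.81, a small step with tight groups. The class I gene H2-Q1 fell 8.11-fold, though class I genes are near-identical and probes may share them. The class II gene H2-Ab1 did not pass (-0.35 ± 0.34).

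Of 22 T and NK cell markers 11 fell and none rose (median -0.96). Their summed signal was 76.8 to 158 in wild type and 50.0 to 76.0 in E2f2-labelled livers. Cd3d fell by 1.29 ± 0.32, but Cd3e, another chain of the same receptor complex, differed by -0.05 ± 0.27. The falls numbered 7 without wild type replicate 4, 7 and 6 without E2f2-labelled replicates 2 and 4, and 4 under normexp. With no filter 7 of 32 fell. Of 10 B cell markers none passed. Of 18 neutrophil markers 3 fell (16.7%) and none rose, where 8.04% of all genes fell and 20.9% were called. Within-slide medians of the neutrophil list ranged from -2.41 to 0.77. None of the neutrophil markers fell without wild type replicate 2, E2f2-labelled replicate 3 or E2f2-labelled replicate 4. S100a8, the main neutrophil calcium-binding protein, read 3.42, 5.19, 4.96 and 4.00 against 4.44, 4.16, 0.99 and 1.43.

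Of 30 genes of fibrosis and stellate cells 14 fell and none rose, with a median of -0.63 (-0.92 to -0.32 within slides). Collagen I (Col1a1) read 1.32, 0.74, 0.06 and 1.48 against -2.16, -0.94, -1.33 and -1.06, 4.83-fold lower. Collagens III (Col3a1) and IV (Col4a1) fell by 1.53 ± 0.24 and 1.93 ± 0.27, and the protease inhibitor Timp1 by 2.76 ± 0.69. Acta2, the actin of activated stellate cells and smooth muscle, differed by 0.11 ± 0.30.

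Endothelial markers were mixed, with 6 of 28 lower and 3 higher. Esm1, an endothelial proteoglycan, read 5.02, 4.52, 2.77 and 3.23 in wild type and -3.44, -1.33, -2.09 and -2.57 in E2f2-labelled livers, 75.6-fold lower. The sinusoidal and lymphatic receptor Lyve1 fell 7.09-fold. The pan-endothelial Kdr did not pass (0.04 ± 0.20), and the fall of Pecam1 (-0.71 ± 0.18) was lost under normexp. Summed endothelial signal was 177 to 196 in wild type and 142 to 177 in E2f2-labelled livers, and 5 rose without wild type replicate 3.

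The hepatocyte list rose in 7 of 26 members (26.9%, against 12.8% of all genes) and fell in none. Its median was 0.32, and -0.03 to 0.38 over the alternatives. With the block 11 rose, while under quantile normalization and with series matrix values 5 rose and 4 fell. Hnf4a rose by 0.76 ± 0.14, while Alb (-0.39 ± 0.20) and Ttr (0.43 ± 0.24) did not pass. The summed hepatocyte signal was 17300 to 23200 in wild type and 20400 to 26700 in E2f2-labelled livers, so the ranges overlapped. Summed cholangiocyte signal was 86.3 to 203 in wild type and 81.8 to 138 in E2f2-labelled livers. Of the 14 cholangiocyte markers 2 fell (14.3%) and none rose, where 8.04% of all genes fell and 20.9% were called. None of them fell without wild type replicate 1 or 2, and 1 fell without E2f2-labelled replicate 1, 3 or 4. Adipoq and Plin1 of adipocytes, Epcam of bile ducts, Klrb1c of NK cells, the pancreatic Prss1, Cpa1 and Pnlip and the muscle genes Ckm and Acta1 were not well above background on any of the 8 arrays. The share of the lists' differences that moves with cell content was not tested.

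Secreted proteins made by hepatocytes rose in part. Of 34 complement and coagulation genes 15 rose and none fell (median 0.57), and 8 rose under each of the 3 other scalings. The terminal complement components C8b, C6 and C9 rose 4.57-fold, 3.60-fold and 2.65-fold. C8b read 4.11, 4.09, 5.15 and 4.14 against 6.57, 6.73, 6.48 and 6.49. Hepcidin (Hamp), the hormone that limits iron export, read 3.13, 4.59, 5.06 and 1.15 against 7.47, 6.41, 7.21 and 7.83, 13.4-fold higher. Of 26 acute phase genes 4 rose (15.4%, near the 12.8% of all genes) and none fell, and 10 rose without E2f2-labelled replicate 3. Serum amyloid A1 (Saa1) read 8.66, 8.83, 8.85 and 8.76 in wild type and 11.21, 11.66, 7.62 and 10.79 in E2f2-labelled livers, so replicate 3 alone was under the wild type values (1.55 ± 0.78, adjusted p = 0.175).

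Stress genes were mixed. Of 29 genes of the unfolded protein and integrated stress responses 5 fell (17.2%, against 8.04% of all genes) and 2 rose (6.9%, against 12.8%). The share called, 24.1%, was near the 20.9% of all genes. None rose under the 3 other scalings or without any 1 of wild type replicate 4 and E2f2-labelled replicates 2 and 4, and 1 rose without any 1 of wild type replicates 1 and 2 and E2f2-labelled replicate 1. The chaperone Hspa5 did not pass (-0.14 ± 0.28), while Ddit3 (CHOP) fell by 1.05 ± 0.23 and Atf3 by 2.54 ± 0.30. The serine synthesis enzyme Psat1 read 2.06, 3.16, -0.63 and 2.35 against -2.21, -2.18, -1.12 and -1.80, with wild type replicate 3 nearest to the E2f2-labelled livers. Of 23 immediate early genes 8 fell and none rose, Atf3 and Btg2 among them. As a reference group, 2 of 20 housekeeping genes rose and 2 fell, with a median of -0.05 (-0.21 to 0.03 over the alternatives), and no housekeeping gene rose under the 3 other scalings.

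Outside the lists, the largest falls included Cpe, a prohormone-processing peptidase (31.3-fold), the growth factor Nrg1 (26.3-fold), Arhgap22 (23.6-fold) and the tetraspanin Tspan8 (47.3-fold). Other Cpe probes gave log2 differences of -4.92 and -2.67. Arhgap22 read 3.47, 3.50, 2.42 and 2.62 against -1.95, -1.27, -0.99 and -2.03. Cpe (-0.82) and Tspan8 (-0.72) were lower in wild type replicate 3 than in the other wild type livers, at 3.51 to 4.13 and 3.18 to 4.60. Nrg1 and Tspan8 were above background on 3 of 4 E2f2-labelled arrays, as were Atf3, Ncmap and Sult1e1, while Ect2 and Gpc3 were on 2. Per3 and Extl1 were above background on 3 of 4 wild type arrays. The sizes given for these genes rest in part on signals at background. Tceal5 and the neuronal kinesin Kif5c, above background in wild type only, were at least 45.8-fold and 36.5-fold lower. Among the largest rises were Serpina4-ps1 (12.4-fold) and Cspg5 (8.43-fold). Of genes above background in E2f2-labelled livers only, the endocytic receptor Lrp2 was at least 5.74-fold, the protease Capn8 at least 4.72-fold and the potassium channel Kcnk1 at least 4.50-fold higher.

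The E2f2-labelled livers were then set directly against the 4 E2f1-labelled livers, a contrast in which the wild type cancels. The treatment of the E2f1-labelled mice is not settled, as said above. Of 20263 genes 303 (1.50%) differed by limma with Benjamini-Hochberg adjustment, 177 (0.874%) higher and 126 (0.622%) lower in E2f2-labelled livers. The genes tested had signal in wild type or E2f2-labelled livers, so genes above background mainly in E2f1-labelled livers were left out. The counts higher and lower therefore cannot be weighed against each other. Of the 303, 190 also differed from wild type, against 20.9% of all genes, in a contrast that uses the same E2f2-labelled arrays. Against wild type, 2571 genes (12.7%) were higher and 1558 (7.69%) lower in the E2f1-labelled livers.

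Dct, an enzyme of melanin synthesis, gave the largest difference upward among genes that also differed from wild type. It read -0.52, -0.66, 2.50 and 1.24 in wild type, 3.94, 4.26, 3.97 and 2.71 in E2f2-labelled and -3.88, -4.71, -2.07 and -5.21 in E2f1-labelled livers, a difference of 7.69 ± 0.77 between the knockout labels (adjusted p = 0.000176). Only 1 E2f1-labelled array was above background. A second Dct probe placed E2f2-labelled above wild type by 3.11. Wdr72, known for its part in enamel formation, read 0.39, -0.16, -0.29 and -0.32 in E2f2-labelled livers and was not above background in any wild type or E2f1-labelled liver, so it was at least 10.3-fold and 10.2-fold higher. Tm4sf20, the adipokine Serpina12 and Sema3e had the same pattern, with bounds against E2f1-labelled livers of 4.28-fold, 3.64-fold and 2.23-fold. Cspg5 stood 2.55 ± 0.34 above. Samd4 was above background in no E2f1-labelled liver and at least 2.22-fold higher in E2f2-labelled ones, although it fell against wild type by 1.06 ± 0.23, a call lost under normexp.

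Downward, Trim12a was the extreme. It read 2.50, 2.45, 2.66 and 2.31 in wild type and 2.16, 2.10, 1.76 and 1.84 in E2f1-labelled livers and was not above background in any E2f2-labelled liver, at least 62.4-fold and 43.6-fold lower. Its second probe differed from wild type by -4.64. TRIM genes of this family are close copies, and the probes may share them. Fbxo44, an F-box protein, and the small GTPase Rab6b were also below background in all E2f2-labelled livers, at least 7.53-fold and 3.67-fold lower than in E2f1-labelled ones, as was Zfp982 (16.8-fold), whose call was lost under normexp. Securin (Pttg1), which holds sister chromatids together until anaphase, read 2.06, 2.41, 2.23 and 1.90 in wild type, 0.87, 1.06, 1.15 and 0.90 in E2f2-labelled and 4.71, 4.60, 4.90 and 4.50 in E2f1-labelled livers, so the 3 groups formed separate levels. Renin 2 (Ren2) differed by -4.28 ± 0.58 and the oestrogen sulfotransferase Sult1e1 by -3.52 ± 0.75.

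**Figure D5:**
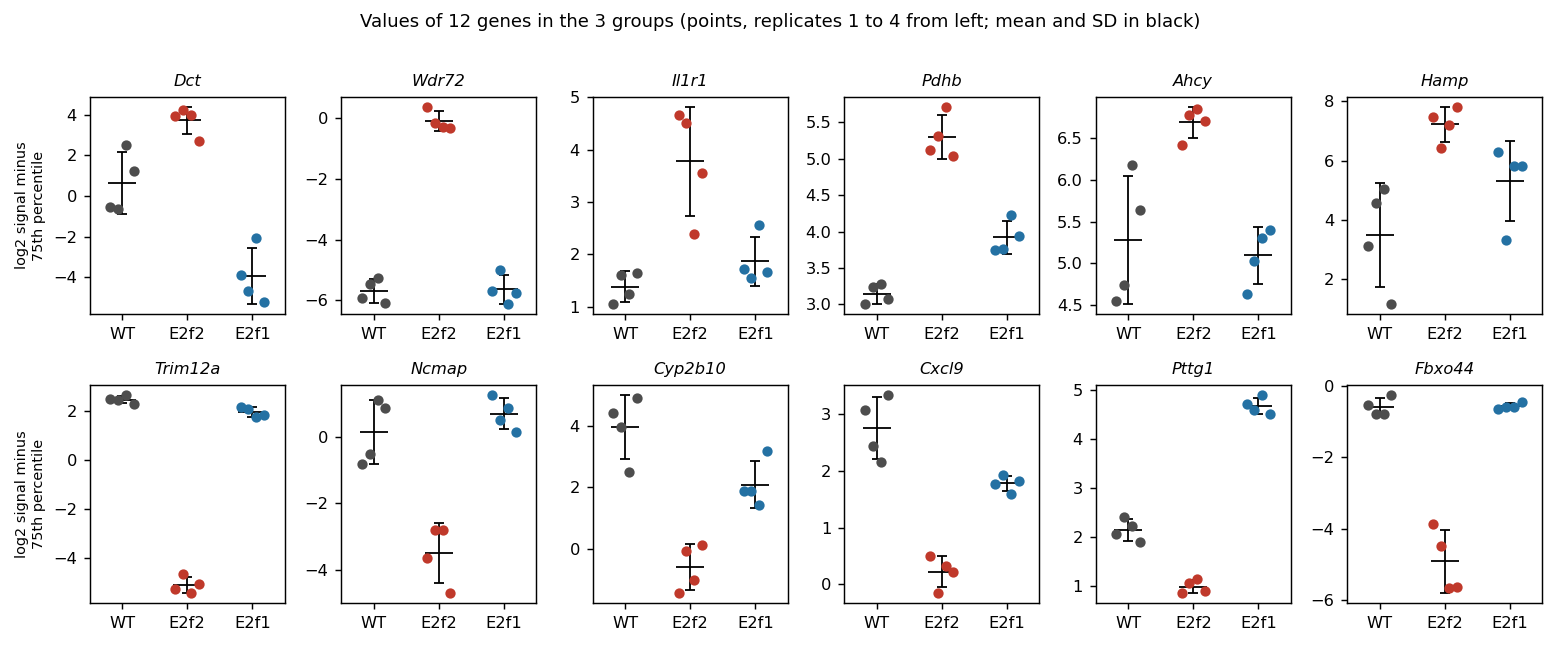
Log2 signal, relative to each array's 75th percentile, for 12 genes in wild type, E2f2-labelled and E2f1-labelled livers, 1 point per liver (replicates 1 to 4 from left) with group means and SD in black. Wdr72 is high in E2f2-labelled livers alone, Trim12a is low in them alone, and Pttg1 forms 3 separate levels.

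Some list members differed between the knockout labels. Pdhb stood 1.37 ± 0.18, Ahcy 1.59 ± 0.32, Il1r1 1.91 ± 0.43 and Nr1d2 1.06 ± 0.23 above the E2f1-labelled livers. Cxcl9 (-1.55 ± 0.24), Gbp2 (-1.38 ± 0.26), Cyp2b10 (-2.68 ± 0.54), Abcc3 (-1.23 ± 0.25) and Fanca (-1.69 ± 0.28) stood below them. The value for Pdhb is that of the probe that differed from wild type by 2.15, where its other probes gave 0.74 and 0.91. Ahcy lies on chromosome 2 at 154885047-154885106 and the E2f1 probe at 154385798-154385857 (mm9). None of the tested members of the mitotic (27), male-biased (23), mitochondrial fatty acid oxidation (25) or fibrosis (30) lists differed between the labels. Securin is not a member of the mitotic list, and no statement that the groups are alike follows from that.

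Genes around the targeted locus were looked at by position. Within 5 Mb of the E2f2 probe 201 genes were tested, of which 30 rose (14.9%, against 12.8% of all genes) and 26 fell (12.9%, against 8.04%) relative to wild type. With quantile normalization 19 rose and 35 fell. Of the same genes 3 stood above and 6 below the E2f1-labelled livers (4.48%, against 1.50% overall), E2f2 itself being counted. The 3 above were E2f2 (1.22), the kinase Rps6ka1 (1.51) and the HLH inhibitor Id3 (1.10). For E2f2 and Rps6ka1 it was the E2f1-labelled livers that differed from wild type (-1.51 and -1.49), while the E2f2-labelled livers were not shown to differ from it (-0.29 and 0.02). The transcript FJ654066 read 8.12, 7.82, 6.72 and 7.44 in wild type, 2.64, 2.62, 2.13 and 1.65 in E2f2-labelled and 6.80, 6.39, 8.03 and 8.03 in E2f1-labelled livers (-5.05 ± 0.41 between the labels). Ncmap, a myelin membrane protein, differed by -4.21 ± 0.51, stathmin (Stmn1), which destabilises microtubules, by -2.05 ± 0.25 and Sytl1 by -1.47 ± 0.24. Extl1 and Snhg3 differed from wild type (2.95 ± 0.42 and -1.91 ± 0.31). Between the labels they differed by 1.815 and -1.391 and narrowly missed the threshold (limma adjusted p = 0.0624 and 0.052). FJ654066, Rps6ka1, Id3, Stmn1, Sytl1, Extl1 and Snhg3 were chosen after their values were seen. The rises numbered 15 without wild type replicates 1 or 2 or E2f2-labelled replicate 3, 19 without E2f2-labelled replicate 4, 13 to 19 under the other scalings and 18 with no filter. By chromosome, the share that differed between the labels was 4.21% on chromosome 14 (33 of 784, where Dct and Pdhb lie), 2.44% on chromosome 4 (31 of 1272), 2.25% on chromosome 7 (34 of 1510), where Trim12a lies, and 0.424% on chromosome X.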

How the data were processed

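Liver RNA of 12 mice was labelled with Cy3 and hybridised to 1-colour Agilent arrays, 1 mouse per array; the labels number the mice within each group, and p-values measure the spread between these mice. The deposited scanner files hold intensity per probe (gProcessedSignal), which the authors took from scans read by Feature Extraction 10.7.3.1 of Agilent, per the file headers. The deposited series matrix holds log2 values of the same arrays whose centring is not stated; it was used as an alternative only, and its column medians were 3.84.

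Spots of a probe were averaged, control spots and outlier spots left out, and log2 intensity was taken minus the 75th percentile of the array. The percentile itself lay between 108 and 212 intensity units. A probe was tested if well above background on 3 of 4 arrays of either group (27894 probes); the brightest tested probe stood for a gene. Of 5412 genes with several tested probes, 1472 had probes that differed in sign. Where no array of a group was above background, the fold is a lower bound from the lowest signal above background of each array. A single limma 3.58.1 fit in R 4.3.3 covered all 12 arrays in 3 groups, with Benjamini-Hochberg adjustment over 20263 genes, and was tested on simulated data. Gene names came from a RefSeq gene table, and promoter sequences with their coordinates from a RefSeq promoter table on GRCm38.p6; probe coordinates are those of the array files (mm9), and no genome file was used here. Their number of arrays limits precision.

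Named genes were the 10 largest rises and falls, the 4 largest bounds each way, list members marked as defining or with the smallest adjusted p, and the 8 largest differences each way from the E2f1-labelled livers, from which the text takes its examples. Genes and lists were chosen with earlier results of these data known, and no list was tested as a set. A few genes of these lists are not reported here. Replicate numbers mark slides. Deviations of same-numbered wild type and E2f2-labelled arrays correlated at 0.040, 0.209, 0.141 and 0.371, and the numbers were not treated as pairs.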

Additional observations from a re-analysis of the deposited data

Results flagged for a closer look

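Of 452 sets of 4 arrays examined (each gene and list median of the text in each group), 29 (6.42%) had 1 array whose gap to the nearest other, relative to the range of the group, passed Dixon's 95% critical value, and chance passes about 1 in 20. No explanation was weighed, and values are log2 signals scaled as in the report.

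Wild type replicate 3 accounted for 9 of these. In it Gpc3 was -2.21 against 3.35 to 4.25 in the other wild type livers, Cpe -0.82 against 3.51 to 4.13, Slco1a1 3.15 against -0.20 to 0.36, Gstp1 6.74 against 5.97 to 6.10 and C8b 5.15 against 4.09 to 4.14. Its median of the tumour list was 1.19 against 2.94 to 3.24, of the replication list 0.72 against 0.55 to 0.58, of the lipogenic list 3.30 against 2.61 to 2.71 and of the respiratory chain list 6.07 against 5.61 to 5.68. E2f2-labelled replicate 3 was high for the same last pair of lists, at 3.62 against 2.89 to 2.99 for lipogenesis and 6.56 against 6.18 to 6.24 for the respiratory chain.

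Among the other wild type livers, replicate 1 was low for E2f8 (-1.03 against -0.10 to 0.07). Replicate 2 was high for Cdca8 (1.33 against 0.79 to 0.86), Cdk1 (-1.73 against -2.44 to -2.40) and the median of the stress response list (3.46 against 2.84 to 2.94), and low for that of NRF2 targets and glutathione (3.64 against 3.96 to 4.01). Replicate 4 was low for C9 (3.69 against 4.21 to 4.28) and for the medians of the mitochondrial ribosome (2.81 against 2.92 to 2.95) and endothelial (1.39 against 1.69 to 1.70) lists.

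Among the E2f2-labelled livers, replicate 1 was high for Rbl1 (-2.39 against -3.67 to -3.48) and the antigen presentation median (4.25 against 3.72 to 3.77), and low for Nr1h4 (5.40 against 5.96 to 6.01), Hsd3b5 (5.88 against 6.43 to 6.50), Mup20 (10.02 against 10.61 to 10.64) and Rab6b (-5.93 against -5.50 to -5.44). Replicate 2 was high for Fh1 (6.56 against 6.30 to 6.34) and Ccl4 (-1.34 against -2.34 to -2.23). Replicate 3 was low for Samd4 (-2.81 against -2.16 to -2.10), and replicate 4 for the T and NK cell median (-1.97 against -1.55 to -1.49).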

How the results depend on the processing

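No called gene named in the text changed sign under the 19 alternatives, while 10 named genes that were not called did, Cdk1, Acta2, Fasn and Mdm2 among them. The number of genes called moved. So did its balance: falls outnumbered rises with quantile normalization (1918 higher, 1951 lower), median centring (1420, 1552) and series matrix values (1897, 1938). Against 4231 calls (2601 higher, 1630 lower), no filter on dim probes gave 2803 (1575 higher) over 34602 names, and array weights gave 6520 (4093 higher). With the replicate number (the slide) as a block 5958 were called, 4041 of them higher, and 4147 were called in both fits; 5 of 8 arrays correlated best with the array of their own number in the other group. Leaving out 1 array at a time gave 2607 to 5176 calls, 1517 to 3152 higher and 1090 to 2024 lower. The 303 genes that differed between the knockout labels were 201 under normexp, 475 with array weights and 216 to 258 with 1 array left out, and 2263 had an unadjusted p under 0.05. Of 141 called genes named in the text 127 kept their call under every alternative and 14 lost it under 1 or more; of 34 named genes not called 11 were called under 1 or more. Of 988 list medians recomputed 51 moved by more than their spread within slides, and 12 of 52 lists had a median that changed sign under at least 1 alternative. The cause was not tested. Of the calls, 121 rest on probes below background on all wild type arrays and 180 on probes below background on all E2f2-labelled arrays, where only a bound is known.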

Other observations

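Further lists had genes called in both directions, with 28.6% to 46.2% of their members called against 20.9% of all genes. Of 24 genes of lipoproteins and cholesterol transport 5 rose and 2 fell (median 0.24, and -0.02 to 0.34 over the alternatives), and 2 or 3 rose without wild type replicates 1, 2 or 4 or E2f2-labelled replicates 1 or 2, while 4 fell without wild type replicate 3. Of 25 NRF2 targets and glutathione genes 4 rose and 4 fell (median -0.04, and -0.36 to 0.02 over the alternatives). Of 20 genes of the growth hormone and IGF axis 5 rose and 2 fell (median 0.45), with 1 fall without wild type replicates 1 or 2 or E2f2-labelled replicate 3. Of 21 iron handling genes 5 rose, Hamp among them, and 1 fell (median 0.40), and 2 rose without wild type replicates 1 or 2 or E2f2-labelled replicate 4. Of 13 erythroid genes 2 rose and 4 fell (median -1.09), and 7 fell and none rose without E2f2-labelled replicate 3, nor did any rise without E2f2-labelled replicate 4; their summed signal was 773 to 2140 in wild type and 662 to 1720 in E2f2-labelled livers.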
